A study of Mus musculus with 6 samples.

Results

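The genes studied here encode the netrins, semaphorins, ephrins and Slits, which steer migrating cells and growing axons, together with their receptors. They were taken by symbol among the protein-coding genes of the deposited tables, and 66 of the 22913 genes in the count table matched, 65 of them also in the table of FPKM (fragments per kilobase of transcript, scaled to sequencing depth). Polyadenylated RNA was sequenced from HL-1, an established mouse line of atrial cardiomyocyte origin. A control plasmid was given to 3 samples and a plasmid for overexpression of human HSPA1A, a stress-induced HSP70 chaperone, to 3 others. Transfection was with Lipofectamine and harvest was 48 h later. Nothing in the labels ties replicates to independent cultures, and p-values then describe only the spread among these libraries, which may be technical.

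Guidance cues work in ligand and receptor pairs. Netrins bind DCC, neogenin and the UNC5 receptors, secreted semaphorins bind neuropilins that signal through plexins, and membrane semaphorins bind plexins directly. Ephrins A are anchored by a lipid and ephrins B cross the membrane, and both bind Eph receptor tyrosine kinases on neighbouring cells, while Slits bind Robo receptors. In the heart and its vessels these families are known for roles in outflow tract septation, in innervation and in the separation of arteries from veins.

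The libraries held between 23849656 and 26897086 counts. Mouse Hspa1a itself had 10, 17 and 11 reads in control and 17, 20 and 11 reads in HSPA1A replicates 1 to 3 (log2 fold change 0.39, adjusted p = 0.795, edgeR's quasi-likelihood test), and how far reads of the human transcript align to it was not tested. HSPA1A replicate 2 stood apart from replicates 1 and 3 on the first principal component, at -15.1 against 15.9 and 18.3, with the control libraries between -8.27 and -4.33. Of 21 heart muscle markers listed, Myl7, Myl3, Mybpc3, Pln, Sln and Hcn4 were absent from the table. The other 15 were in it, and 6 had a mean of at least 1 FPKM. These were Des at 188, Gja1 at 38.3, the troponin genes Tnnt2 at 29.8 and Tnnc1 at 5.13, and the transcription factor genes Gata4 at 8.28 and Nkx2-5 at 2.20 FPKM. Myl4, Gja5 and Mef2c had means from 0.178 to 0.883 FPKM, and Actc1, Actn2, Ttn, Ryr2, Tnni3 and Tbx5 were at or near 0, with library values of at most 0.16 FPKM. The summed heart muscle markers ranged from 286 to 292 FPKM in control and from 242 to 282 FPKM in HSPA1A libraries. Most of this sum was Des, at 193.08 to 205.85 FPKM in control and 166.59 to 179.52 FPKM in HSPA1A libraries (adjusted p = 0.510, edgeR). On scaled read counts, all HSPA1A libraries lay below all controls for Des, as for 7.17% of all tested genes. Gja1, Tnnt2, Tnnc1, Gata4 and Nkx2-5 each overlapped between the groups. The endothelial markers summed to at most 0.20 FPKM in any library, with 0 of the 6 in the table at a mean of 1 FPKM, and the leukocyte markers to between 2.31 and 5.49 FPKM, nearly all from Cd68. Fibroblast markers summed to between 132 and 162 FPKM, mostly from Col3a1 and Col1a2, which averaged 76.2 and 51.8 FPKM. Col1a1 and Dcn were at 11.2 and 8.01 FPKM, Pdgfra and Postn at 0.415 and 0.152, and Lum and Thy1 at or near 0. The neuron and glia markers summed to between 55.7 and 85.6 FPKM, mostly from Stmn2 and Tubb3, with Snap25 and Rbfox3 at or near 0. Smooth muscle markers summed to between 37.19 and 55.05 FPKM, mostly from Acta2 and Smtn, with Myh11 and Cnn1 at or near 0. These sums overlapped between the groups for all but the heart muscle markers, and the part of any of them in the results below was not tested.

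Of the 66 guidance genes, 44 had enough reads to be tested and 25 had a mean of at least 1 FPKM. The other 22 had between 1 and 55 reads over all 6 libraries together, 10 of them fewer than 10 reads. FPKM is scaled by gene length and allows levels to be set side by side between genes. The highest level was that of Epha2, an EphA receptor that is also common in epithelial and tumour cells, at 48.0 FPKM on average (39.94 to 52.32 over the libraries). Plxnb2, a plexin that binds class 4 semaphorins, came next at 29.8 FPKM (25.37 to 32.20), with no overlap with Epha2. A group of 7 genes followed at mean levels from 12.2 to 14.01 FPKM, namely Sema3b, Plxna1, Nrp2, Neo1, Sema5a, Sema4f and Unc5b, and the library ranges of neighbours in this order overlapped. These 9 genes were 13.8% of the 65 guidance genes with FPKM values, whereas 22% of all 22833 genes had a mean of at least 10 FPKM. The guidance genes are all protein-coding, whereas the 22833 include genes of other types.

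**Figure D1:**
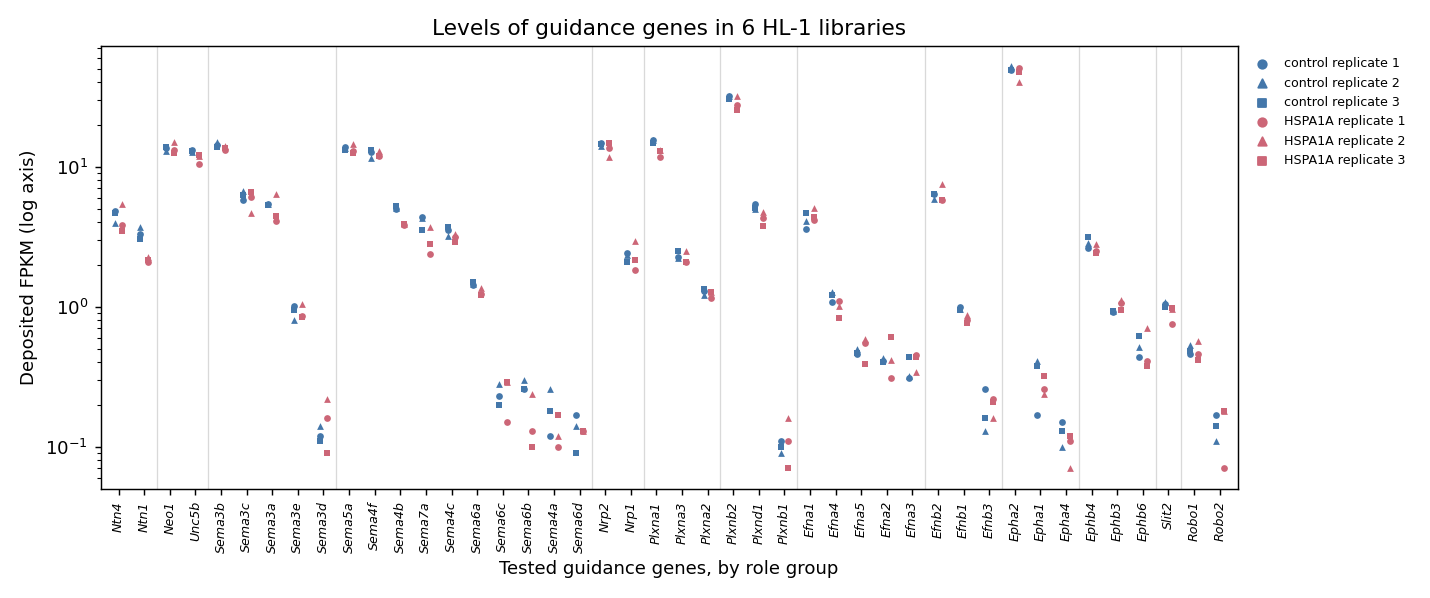
Deposited FPKM on a log axis for the 44 tested guidance genes, grouped by role, with 1 point per library (blue for control, red for HSPA1A, shapes for replicates). Epha2 and Plxnb2 are highest, and genes such as Plxnb1 and Epha4 lie near 0.1 FPKM.

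Among the netrins, which are secreted and related to laminins, Ntn1 and Ntn4 were expressed and Ntn5 had 1 read. Ntn1 (ENSMUSG00000020902.10, chromosome 11, 68209364 to 68400823 minus strand, build GRCm38) fell in HSPA1A cells and was the 1 member of the families that passed the test. Its levels in CPM (read counts scaled to library size by TMM) were 21.5, 23.8 and 19.7 for control and 14.3, 14.7 and 14.8 for HSPA1A, each listed here and below by replicate from 1 to 3. All 3 HSPA1A libraries lay below all control libraries and close together. The change was 1.48-fold, with means of 21.7 ± 2.1 and 14.6 ± 0.3 CPM (SD, n = 3 each), a log2 fold change of -0.57 ± 0.08 (SE; 95% interval -0.75 to -0.38) and a Benjamini-Hochberg adjusted p of 0.0310 over 12827 genes in edgeR. No exon of an annotated gene on the other strand overlaps the exons of Ntn1. On the same strand Gm12305 overlaps the span of Ntn1, and overlap of their exons was not tested. The call was not kept without control replicate 1, 2 or 3 or without HSPA1A replicate 1 or 3 (adjusted p from 0.0544 to 0.182), although the log2 fold change stayed between -0.63 and -0.50, and it was kept without HSPA1A replicate 2 (adjusted p = 0.00113). On the log2(FPKM + 1) scale with limma the difference was -0.45 and was not called (adjusted p = 0.128). The median of all tested genes on that scale was -0.041. The added 1 shrinks differences at low levels, and the FPKM means of Ntn1 were 3.36 in control and 2.18 in HSPA1A libraries. With 0.1 added in its place Ntn1 was not called either. That scale called 0 of the 44 guidance genes and 0.117% of all tested genes. Why the call was lost on these scales was not tested.

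Ntn4, whose product binds laminin in basement membranes, did not follow Ntn1. It stood at 18.9, 15.1 and 18.1 CPM in control and 15.7, 21.0 and 14.2 CPM in HSPA1A libraries. HSPA1A replicate 2 was the highest of the 6 libraries and HSPA1A replicate 3 the lowest, so the groups overlapped fully (log2 fold change -0.03, 95% interval -0.34 to 0.28).

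The receptors for netrin were unevenly expressed. Dcc, the classical attractive receptor, had 1 read in all, and Unc5a, Unc5c and Unc5d had 3, 1 and 10 reads. Unc5b, which mediates repulsion and is best known from blood vessels, was read at 82.0, 78.0 and 79.5 CPM in control and 68.7, 74.1 and 79.1 CPM in HSPA1A libraries. Replicates 1 and 2 of HSPA1A lay below the control range and replicate 3 within it. Its log2 fold change of -0.11 (95% interval -0.24 to 0.02) did not pass the test. Neo1, which encodes neogenin and also binds repulsive guidance molecules, stood at 107, 100.4 and 108 CPM in control and 109, 118 and 103 CPM in HSPA1A libraries. Its groups overlapped, with a log2 fold change of 0.06 (95% interval -0.07 to 0.20).

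Of the 7 secreted semaphorins with reads, 5 were tested, and none passed the test. Their log2 fold changes ran from -0.06 to 0.39. Sema3b, Sema3c and Sema3a led, at mean levels of 14.01, 6.04 and 5.18 FPKM. Sema3b was even, at 56.8, 58.2 and 54.3 CPM in control and 54.1, 55.8 and 56.9 CPM in HSPA1A libraries, and its interval from -0.14 to 0.10 on the log2 scale was among the narrowest of the families. Sema3c, known for its part in cardiac outflow tract septation, stood at 34.0, 38.9 and 36.6 CPM in control and 37.0, 27.5 and 40.8 CPM in HSPA1A libraries, where replicate 2 was the lowest of all and replicate 3 the highest. Sema3a, the repellent that patterns sympathetic nerves of the heart, was at 36.0, 35.2 and 35.1 CPM in control and 28.6, 42.4 and 31.0 CPM in HSPA1A libraries. Here replicate 2 was the highest of all and replicates 1 and 3 lay below every control library. Sema3d, Sema3a, Sema3e and Sema3c lie on chromosome 5 of GRCm38, starting at 12383385, 13125414, 14025276 and 17574281, and their mean levels differed from 0.140 FPKM for Sema3d and 0.922 FPKM for Sema3e to those above.

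Membrane semaphorins made up 12 members, of which 10 were tested, 6 with a lower and 4 with a higher mean in HSPA1A libraries, and none passed the test in the fit of all libraries. The lowest p among them was that of Sema4b (ENSMUSG00000030539.11, chromosome 7, 80186841 to 80226527 on the plus strand), a class 4 semaphorin. It stood at 24.98, 25.1 and 26.0 CPM in control and 20.02, 19.7 and 20.4 CPM in HSPA1A libraries. The groups were tight and did not overlap (log2 fold change -0.34 ± 0.06, SE), and the adjusted p in edgeR was 0.102. It was called without HSPA1A replicate 2 (adjusted p = 0.00685) and without a filter on low counts (adjusted p = 0.00817).

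Sema7a, the semaphorin with a lipid anchor, which binds integrins and plexin C1, was at 15.3, 14.8 and 12.4 CPM in control and 8.80, 13.1 and 10.3 CPM in HSPA1A libraries. HSPA1A replicate 2 lay inside the control range and the other 2 below it. The log2 fold change was -0.39 ± 0.14 (SE; adjusted p = 0.515, edgeR), and without HSPA1A replicate 2 it was -0.56 and called (adjusted p = 0.00553). Its plexin receptor gene Plxnc1 had 2 reads over all libraries. Sema6b, a class 6 semaphorin that binds plexins A, had few reads, 29, 31 and 29 in control and 14, 27 and 11 in HSPA1A libraries. On the CPM scale all HSPA1A libraries lay below the controls, by little for replicate 2 (0.997 against a lowest control of 1.09 CPM), with a log2 fold change of -0.72 ± 0.30 (SE; adjusted p = 0.553, edgeR).

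Sema5a and Sema4f, the most abundant membrane semaphorins, differed little. Sema5a, which carries thrombospondin repeats, was at 160, 154 and 149 CPM in control and 157, 167 and 152 CPM in HSPA1A libraries. Sema4f was at 69.0, 60.6 and 70.2 CPM in control and 66.7, 69.5 and 67.1 CPM in HSPA1A libraries. Their log2 fold changes were 0.04 (95% interval -0.08 to 0.16) and 0.03 (95% interval -0.12 to 0.17), below 0 for both on the FPKM scale and for Sema4f also on library totals alone. On these scales the median of all tested genes was below 0 as well. The remaining tested members Sema4a, Sema4c, Sema6a, Sema6c and Sema6d had log2 fold changes from -0.43 to 0.09, and Sema4d and Sema4g had too few reads.

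The stretches of 250 bases before the annotated starts of Sema4b and Sema7a are shown because these were the guidance genes called besides Ntn1 when no filter on low counts was used. That setting called 4.55% of the guidance genes and 0.895% of all genes, and neither gene was called with the filter. The stretches are a description only. These sequences come from RefSeq on GRCm38.p6, 5′ to 3′ on the strand of the gene, and capitals mark each match to the GC box GGGCGG, bound by SP-family factors, on either strand.
Sema4b first start, chr7:80186620-80186869, plus strand: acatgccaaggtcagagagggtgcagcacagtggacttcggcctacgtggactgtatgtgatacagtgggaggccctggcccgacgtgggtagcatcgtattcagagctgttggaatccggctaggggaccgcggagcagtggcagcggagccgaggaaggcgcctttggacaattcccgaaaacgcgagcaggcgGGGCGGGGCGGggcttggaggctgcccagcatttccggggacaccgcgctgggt
Sema4b second start, chr7:80198338-80198587, plus strand: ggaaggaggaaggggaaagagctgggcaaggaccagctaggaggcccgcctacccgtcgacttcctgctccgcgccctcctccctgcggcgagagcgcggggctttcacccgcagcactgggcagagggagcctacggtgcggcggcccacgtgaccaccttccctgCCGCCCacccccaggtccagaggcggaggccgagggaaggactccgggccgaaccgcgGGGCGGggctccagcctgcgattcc
Sema7a, chr9:57939862-57940111, plus strand: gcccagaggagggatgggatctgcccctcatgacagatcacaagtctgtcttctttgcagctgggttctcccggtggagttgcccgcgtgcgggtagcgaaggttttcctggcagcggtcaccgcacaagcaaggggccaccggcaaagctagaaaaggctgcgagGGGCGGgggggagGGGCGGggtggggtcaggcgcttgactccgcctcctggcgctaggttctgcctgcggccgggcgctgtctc
Each stretch held 2 GC boxes, which overlap in the first Sema4b stretch, and 64.4%, 72.4% and 66.4% of the bases were G or C. None of the 3 held TATAAA (the TATA box), GAANNTTC (paired units of the heat shock element), CCAAT or a form of the NF-kB site, and the second Sema4b stretch held 1 CACGTG (an E-box).

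RefSeq starts were found for 39 of the 44 tested guidance genes, with 52 stretches of this length. None was available for Ntn1, Plxna1, Sema3b, Efnb3 or Sema6a, so the shares below do not cover these genes. Searched on both strands, a GC box was present in 40 of the 52 (76.9%), against 57.7% of 11781 stretches of all tested genes and 32.7% of all 32851 stretches. TATAAA was present in 2 of the 52 (3.85%, against 6.34% for tested genes and 12.4% of all) and GAANNTTC in 0 of the 52 (against 5.06% and 6.69%). CACGTG was present in 3 (5.77%, against 8.21% and 6.02%), CCAAT in 11 (21.2%, against 35.8% and 33.8%) and the NF-kB form in 1 (1.92%, against 1.54% and 1.41%). A match is only a run of letters, and no binding was measured in this study.

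Neuropilins are the binding subunits for secreted semaphorins and for VEGF. Nrp2 was the more abundant, at 13.9 against 2.29 FPKM for Nrp1. Nrp2 stood at 163, 152 and 160.3 CPM in control and 159, 129 and 170.5 CPM in HSPA1A libraries, and Nrp1 at 15.2, 14.4 and 13.0 CPM in control and 12.04, 18.4 and 14.3 CPM in HSPA1A libraries. HSPA1A replicate 2 was the lowest library for Nrp2 and the highest for Nrp1, and neither gene passed the test (log2 fold changes -0.05 and 0.07).

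Plexins transmit the semaphorin signal through a GTPase-activating domain inside the cell. Of 9 members, 6 were tested, and none passed the test in the fit of all libraries. Plxna1 (ENSMUSG00000030084.9, chromosome 6, 89316314 to 89362620 on the minus strand), the main partner of neuropilins here by level, was at 149, 146 and 140.4 CPM in control and 119, 127 and 130.1 CPM in HSPA1A libraries. The groups did not overlap (log2 fold change -0.21 ± 0.05, SE; adjusted p = 0.342, edgeR). Exons of Gm26811 or Gm44207 on the other strand overlap 970 bases of its exons, and the strand setting used for counting is not known here, so reads of these genes cannot be told apart. Plxna3 was at 16.9, 16.2 and 18.2 CPM in control and 16.0, 18.5 and 16.3 CPM in HSPA1A libraries, which overlapped, as did those of Plxna2.

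Plxnd1 (ENSMUSG00000030123.13, chromosome 6, 115954811 to 115995005 on the minus strand), the receptor for Sema3e known from vascular patterning, was at 40.3, 36.1 and 36.9 CPM in control and 33.3, 34.7 and 29.3 CPM in HSPA1A libraries. Its groups did not overlap (log2 fold change -0.22 ± 0.07, SE; adjusted p = 0.485, edgeR). Plxnb2 was at 219, 216 and 206 CPM in control and 198, 221 and 183 CPM in HSPA1A libraries, where replicate 2 was the highest of all. Its log2 fold change was -0.09 (95% interval -0.24 to 0.06).

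**Figure D2:**
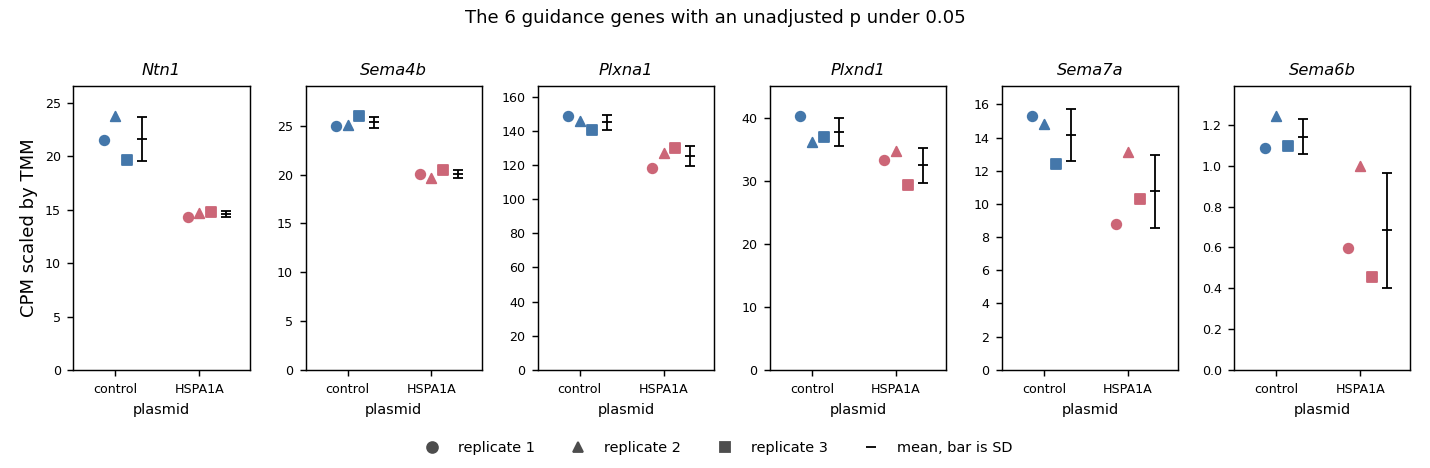
CPM scaled by TMM in each library for Ntn1, Sema4b, Plxna1, Plxnd1, Sema7a and Sema6b, with the mean and SD of each group (n = 3) beside the points and axes starting at 0. All HSPA1A points lie below all control points except for Sema7a, where HSPA1A replicate 2 at 13.1 CPM exceeds the lowest control at 12.4 CPM.

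Ephrins A and B are ligands held on the cell surface, and none of the 8 members, all tested, passed the test. Efnb2, the ephrin of arterial endothelium, led at 6.30 FPKM. It was at 29.7, 26.7 and 29.2 CPM in control and 28.1, 34.4 and 28.1 CPM in HSPA1A libraries, with HSPA1A replicate 2 the highest. Efna1, a ligand of Epha2, followed at 4.33 FPKM, at 6.99, 7.90 and 9.08 CPM in control and 8.50, 9.93 and 8.90 CPM in HSPA1A libraries, which overlapped (log2 fold change 0.19, 95% interval -0.07 to 0.46). Efna1, Efna3 and Efna4 are neighbours on chromosome 3 of GRCm38, between 89271733 and 89338028, and their mean levels were 4.33, 0.383 and 1.09 FPKM. Efna4 stood at 1.84, 2.13 and 2.04 CPM in control and 1.96, 1.74 and 1.49 CPM in HSPA1A libraries. Efnb1 was at 3.46, 3.29 and 3.25 CPM in control and 2.95, 3.06 and 2.81 CPM in HSPA1A libraries. Its groups did not overlap, but the log2 fold change of -0.18 did not pass the test (95% interval -0.49 to 0.14).

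Eph receptors are the largest family of receptor tyrosine kinases. Of 14 members, 6 were tested and none passed the test. Epha2 was at 206, 215 and 202 CPM in control and 221, 167 and 208 CPM in HSPA1A libraries, with HSPA1A replicate 1 the highest and replicate 2 the lowest of all. Its log2 fold change was -0.06 (95% interval -0.26 to 0.14), and 0.05 without HSPA1A replicate 2. Epha1, next among the EphA genes at 0.297 FPKM, had 16, 35 and 35 reads in control and 22, 23 and 28 reads in HSPA1A libraries. Ephb4, the receptor of Efnb2 known from veins, was at 12.4, 13.2 and 14.6 CPM in control and 12.2, 13.1 and 11.9 CPM in HSPA1A libraries. Ephb3 was at 4.06, 4.09 and 4.09 CPM in control and 4.95, 4.95 and 4.47 CPM in HSPA1A libraries. It was the 1 tested member with all HSPA1A libraries above all controls, and it did not pass the test (log2 fold change 0.23, 95% interval -0.04 to 0.51).

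Slit2 was the expressed Slit, at 11.3, 11.5 and 10.6 CPM in control and 8.37, 10.4 and 11.01 CPM in HSPA1A libraries, while Slit3 had 11 reads in all. Slit2 did not pass the test (log2 fold change -0.16, 95% interval -0.41 to 0.09), and the value was -0.05 without HSPA1A replicate 1. Its receptors were low, with Robo1 at 0.487 and Robo2 at 0.142 FPKM on average. Robo1 stood at 3.68, 4.17 and 3.86 CPM in control and 3.89, 4.58 and 3.601 CPM in HSPA1A libraries, and Robo2 at 1.69, 1.04 and 1.36 CPM in control and 0.769, 1.74 and 1.82 CPM in HSPA1A libraries. Both sets of libraries overlapped.

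Over all families, 1 of the 44 tested guidance genes was called lower and 0 higher, where 0.156% of all tested genes were called lower and 0.0234% higher (0.179% in either direction). The median log2 fold change of the 44 was -0.025, with 25 values below 0, beside a median of 0.0029 and 49% of values below 0 for all 12827 tested genes. At an unadjusted p under 0.05, 6 of the 44 (13.6%) were lower and 0 higher, against 4.26% and 4.33% of all tested genes (8.59% in either direction). The 6 were Ntn1, Sema4b, Plxna1, Plxnd1, Sema7a and Sema6b. In 7 of the 44 (15.9%) all HSPA1A libraries lay below all controls, against 7.17% of all tested genes, and in 1 (2.27%) they lay above, against 7.30%. These shares are descriptions without a test of their own, and 5 of the 6 genes did not pass the adjusted threshold.

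**Figure D3:**
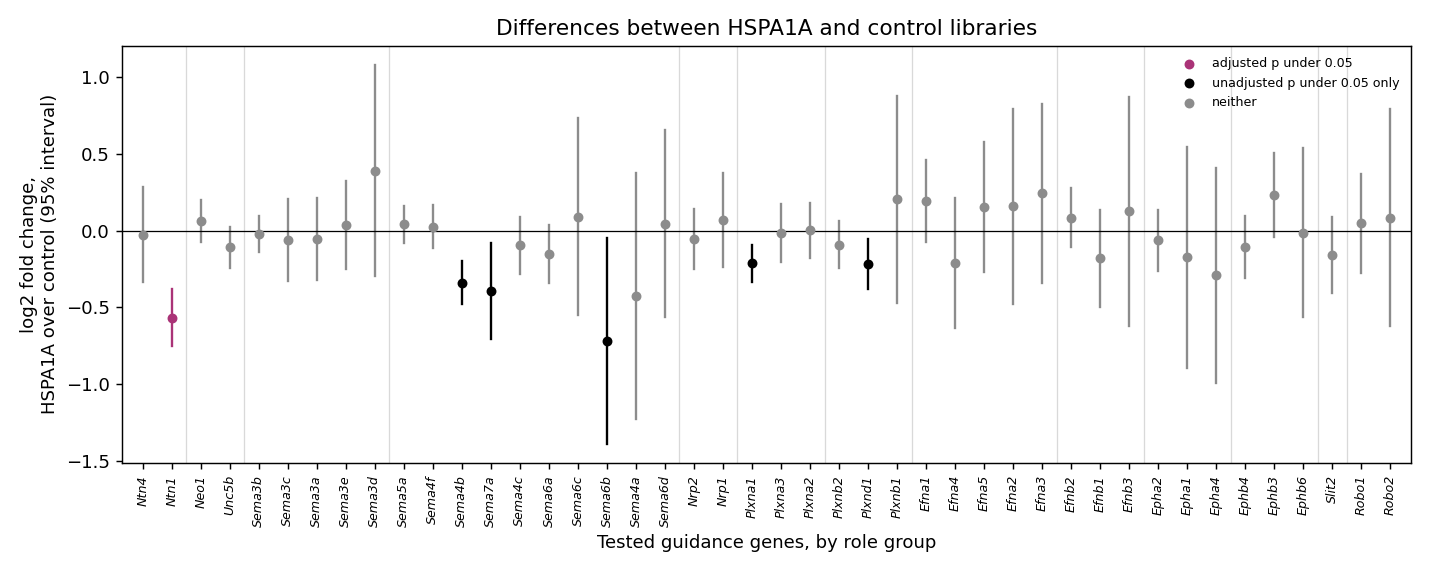
Log2 fold change of HSPA1A over control with its 95% interval for the 44 tested guidance genes, from edgeR's quasi-likelihood fit. Ntn1 at -0.57 has an adjusted p under 0.05, and the other 5 genes in black have only an unadjusted p under 0.05.

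HSPA1A replicates 2 and 3 were each the highest or the lowest of the 6 libraries for 20 of the 44 genes (45.5%), near their shares over all tested genes (43.3% and 43.2%), and replicate 1 for 16 (36.4%, as over all tested genes). Replicate 2 was the highest for 15 (34.1%, against 22.3% of all tested genes) and the lowest for 5 (11.4%, against 21%). Replicate 1 was the lowest for 13 (29.5%, against 18.6%) and the highest for 3 (6.82%, against 17.9%). Replicate 3 was the lowest for 14 (31.8%, against 21.3%) and the highest for 6 (13.6%, against 21.9%). The share of counts on the noncoding transcript Yam1 was 2.70% and 2.53% in replicates 1 and 3, 1.58% in replicate 2 and from 1.18% to 1.86% in the controls, and its part in these differences was not tested.

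Without HSPA1A replicate 2, 8 of 45 tested guidance genes were called lower and 0 higher, where that fit called 4.94% of 12955 genes lower and 5.27% higher (10.2% in either direction). The 8 were Ntn1, Sema4b, Sema7a, Plxna1, Sema3a, Plxnd1, Plxnb2 and Sema6b, with log2 fold changes from -1.11 for Sema6b to -0.16 for Plxnb2. For Ntn1 and Sema4b the value hardly differed between the fits, at -0.57 and -0.32 without that library against -0.57 and -0.34 with it. For Sema3a it was -0.25 against -0.06, and 0.05 without HSPA1A replicate 1. For Sema7a it was -0.56 against -0.39, and -0.27 without HSPA1A replicate 1. Leaving out any one of the other libraries called 0 guidance genes.

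**Figure D4:**
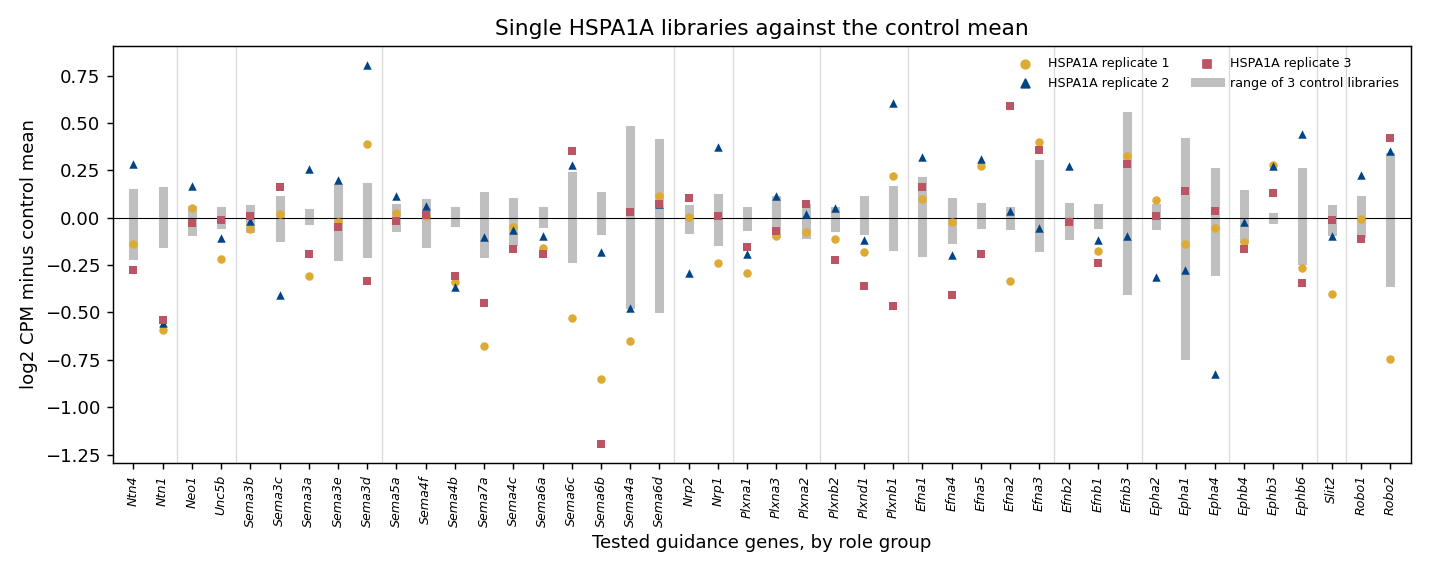
Log2 CPM of each HSPA1A library minus the control mean for the 44 tested guidance genes, with the range of the 3 control libraries as grey bars. The 3 HSPA1A libraries sit together for Ntn1 and Sema4b, whereas replicate 2 lies opposite to replicates 1 and 3 for Sema3a.

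Other parts of the pathway showed no called gene in the fit of all libraries. Among other cues and co-receptors, 0 of 19 tested genes were called by edgeR or by DESeq2, 2 had an unadjusted p under 0.05 and a lower mean (10.5%, against 4.26% of all tested genes) and 0 a higher mean, and the median log2 fold change was -0.020. The smallest p-values were those of the adhesion molecule gene L1cam (94.0 ± 5.2 CPM in control, 82.7 ± 6.8 in HSPA1A), the syndecan gene Sdc4 (165 ± 5.1 and 152 ± 4.3), Rgma, a ligand of neogenin (18.4 ± 1.6 and 16.3 ± 0.9), and the receptor gene Met (53.8 ± 1.8 and 56.6 ± 0.7; all SD, n = 3). Among intracellular effectors of guidance receptors, 0 of 70 tested genes were called by edgeR or by DESeq2, 7 had an unadjusted p under 0.05 and a lower mean (10%, against 4.26%) and 1 a higher mean (1.43%, against 4.33%), and the median was -0.028. In either direction these were 10.5% of the cues and co-receptors and 11.4% of the effectors, near the 8.59% of all tested genes. The smallest p-values there belonged to Evl, Src, Mical1 and Vasp, with log2 fold changes of -0.21, -0.16, -0.16 and -0.19. The symbol Mical3 covers separate gene entries, at log2 fold changes of -0.35 and -0.03, and each was counted among the 70. Evl and Vasp encode actin regulators of the Ena/VASP family, Src a tyrosine kinase and Mical1 an enzyme that oxidises actin downstream of plexins. Without HSPA1A replicate 2, 3 of the 19 (15.8%) and 9 of the 70 (12.9%) were called, all lower, the 9 with Evl, Src, Mical1 and Vasp among them. That fit called 4.94% of all tested genes lower and 10.2% in either direction.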

How the data were processed

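Polyadenylated RNA of 3 control and 3 HSPA1A samples was sequenced from a stranded kit as paired-end reads, per the labels' protocols. TopHat2, bcl2fastq and edgeR, with build GRCm38, are listed without roles in the submitters' processing notes; which program counted reads, with what strand setting and gene models, was not known here. The authors deposited whole read counts per gene and FPKM rounded to 2 decimals, and 0 sample columns were left unused. Coordinates came from GENCODE M21 on GRCm38, which held all 66 guidance genes, and exons of 7 of the 44 tested ones overlap exons on the other strand. These were Efna3, Efna4, Epha1, Ephb4, Plxna1, Plxnb1 and Sema4c. Exon overlap with genes on the same strand, such as Gm12305 at Ntn1 and Gm45206 at Sema4b, was not tested.

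Counts were normalised by TMM in edgeR 4.0.16 (R 4.3.3), filtered with filterByExpr (minimum count 10, minimum total 15) and compared with the quasi-likelihood test (glmQLFit, glmQLFTest) with Benjamini-Hochberg adjustment over all 12827 tested genes at 0.05, without covariates. The SE is the log2 fold change divided by the square root of F. The script was tested on simulated counts. Depth ran from 23849656 to 26897086 counts. Values were given for members with p under 0.05 and the 2 highest by FPKM in each role group, and for 4 genes by p of each of the 2 further lists. Other members were named after their values were seen. The members and lists were chosen with earlier results of these data known, and the motifs were chosen after the data had been seen.

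Other settings tried were size factors of the DESeq2 type, scaling by library totals alone, DESeq2 1.42.0, limma-voom (limma 3.58.1), testing without a filter or only genes at 5 CPM in 3 libraries, a replicate block, leaving out each library, and limma-trend on log2(FPKM + 1), log2(FPKM + 0.1) or genes averaging 1 FPKM or more. An exon length correction was chosen after seeing the data. Plots used matplotlib 3.10.9.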

Additional observations from a re-analysis of the deposited data

How the results depend on the processing

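The count of guidance genes called, 1 in the fit of all libraries, was also 1 with DESeq2-type size factors, library totals alone, DESeq2, limma-voom, the filter of 5 CPM and the exon length correction, and the gene was Ntn1 in each. It was 3 of 66 with no filter on low counts (4.55%, against 0.895% of all 22913 genes), namely Ntn1, Sema4b and Sema7a. On the 3 FPKM scales it was 0, and leaving out one library gave 0 to 8. The same left-out libraries gave 0 to 3 other cues and co-receptors, 0 to 9 effectors and 10 to 1323 of all genes. The count over all genes was 23, and 64 were called by DESeq2, 205 with no filter and 15 on each FPKM scale. The replicate number as a block gave 0 guidance genes and 16 of all genes; Ntn1 then had an adjusted p of 0.0557 in edgeR at an unmoved log2 fold change of -0.57. The numbers do not pair the libraries by the labels, and the deviations of same-numbered libraries correlated at -0.10, -0.0015 and 0.085, across genes. The cause of these differences was not tested.

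Among uncalled genes the sign of small values turned. The median of all tested genes was -0.033 on library totals alone, -0.041 with log2(FPKM + 1) and -0.055 with log2(FPKM + 0.1). It was 0.0029 with TMM scaling in edgeR. On library totals alone Sema4f was at -0.0098. With log2(FPKM + 1) Sema4f, Sema5a and Robo1 were at -0.027, -0.016 and -0.0075, with the same values for Sema4f and Sema5a at a mean FPKM of at least 1. With log2(FPKM + 0.1) Sema4f, Sema5a, Robo1, Nrp1 and Robo2 were at -0.029, -0.017, -0.023, -0.0051 and -0.010. Leaving out one library gave ranges of -0.038 to 0.065 for Sema4f, -0.020 to 0.14 for Efnb2, -0.15 to 0.052 for Epha2, -0.21 to 0.087 for Ntn4, -0.058 to 0.12 for Robo1, -0.11 to 0.20 for Nrp1, -0.14 to 0.056 for Nrp2, -0.18 to 0.095 for Sema3c, -0.47 to 0.027 for Epha1, -0.084 to 0.032 for Plxna3, -0.10 to 0.38 for Robo2, -0.048 to 0.00060 for Sema3b and -0.25 to 0.054 for Sema3a. Depth limits the 22 untested members and those near 1 CPM, such as Sema6b.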
